A study of Nothobranchius furzeri with 15 samples.

Results

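A set of 194 liver genes was lower at rotenone 150 pM than in every other library of the series, out of 15834 genes tested (1.23%). They were chosen on their measured levels. A gene was a member if the highest of the 5 libraries of 150 pM lay below the lowest of the 10 libraries of DMSO and 15 pM, while the ranges of DMSO and 15 pM overlapped. Levels are CPM, a gene's counts as a share of the library scaled by TMM factors, and genes with a mean above 1000 CPM over the 15 libraries were left out. The low level at 150 pM was therefore set by the choice, and the comparisons between groups below describe the members with no test of the set. Calls of single genes are also given, and at 150 pM they rest on contrasts that the rule used.

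RNA was sequenced from livers of male turquoise killifish (Nothobranchius furzeri) of the GRZ strain at 9 weeks of age. The 3 groups were DMSO, rotenone at 15 pM and rotenone at 150 pM, with 5 libraries each. All 15 libraries share strain, sex, age and tissue, and they differ in the labels only by the agent and its dose. DMSO is the solvent control, and no source used here gives the route or length of exposure. Libraries are named by the number in the sample titles, which is 1 to 5 for DMSO and for 15 pM, and 8 to 12 for 150 pM. The labels name no tank, family or day, and do not state that each library is a different fish, so the spread between libraries may be partly technical.

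Rotenone blocks complex I of the mitochondrial respiratory chain, which takes electrons from NADH, passes them to ubiquinone and pumps protons that drive ATP synthesis. The liver is a metabolically active organ, and most of its mass is hepatocytes. The turquoise killifish is a short-lived annual fish used to study ageing. Such whole-tissue RNA cannot tell fewer cells of a type from less RNA per cell.

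The genes carry identifiers without symbols, and none of the 26739 was matched by the table of killifish genes at hand. Gene functions, the markers of liver and of other cell types and the lists of pathway genes could therefore not be applied, and the labelled tissue was not checked against its markers. Only 2 members are printed by identifier. The others are named by their rank in mean CPM over the 10 libraries of DMSO and 15 pM, where rank 1 is the highest.

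Library totals ranged from 22185038 to 35672589 counts. The median gene lay between 92.8% and 100.2% of its DMSO mean in each of the 15 libraries. Library 4 of 15 pM stood apart among the members, so some values that involve 15 pM are also given without it. The other values that involve 15 pM include it. In the same CPM values, 204 genes (1.29% of those tested) had all 5 libraries of 150 pM below all 10 others. Of these, 8 were left out because DMSO and 15 pM did not overlap, and 2 because their mean was above 1000 CPM. The mirrored rule found 315 genes that were high only at 150 pM, and the same rule applied to the lower dose found 271 genes that were low only at 15 pM.

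The members stood at a similar depth below DMSO in each of the 5 libraries of 150 pM. For each library, the members' CPM was expressed as a percent of each gene's DMSO mean and the median was taken over the 194 genes. This median was 105, 108, 95.0, 92.8 and 93.7% in DMSO libraries 1 to 5. It was 106, 99.1, 87.9, 139 and 87.6% in 15 pM libraries 1 to 5. It was 64.6, 69.1, 63.7, 68.4 and 64.4% in 150 pM libraries 8 to 12. The 150 pM libraries spanned a narrower range than either other group, and library 4 of 15 pM was the highest of all. The rule kept the highest values at 150 pM down, so the similar depth and narrow range there are partly set by the choice of members. The group mean was 98.9 ± 7.07% for DMSO, 104 ± 21.0% for 15 pM and 66.0 ± 2.51% for 150 pM (SD, n = 5 each). Of a library's counts, the members together took 0.738 ± 0.0822% (DMSO), 0.771 ± 0.353% (15 pM) and 0.431 ± 0.0364% (150 pM), as mean and SD over 5 libraries. The share in 15 pM library 4 alone was 1.38%.

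**Figure D1:**
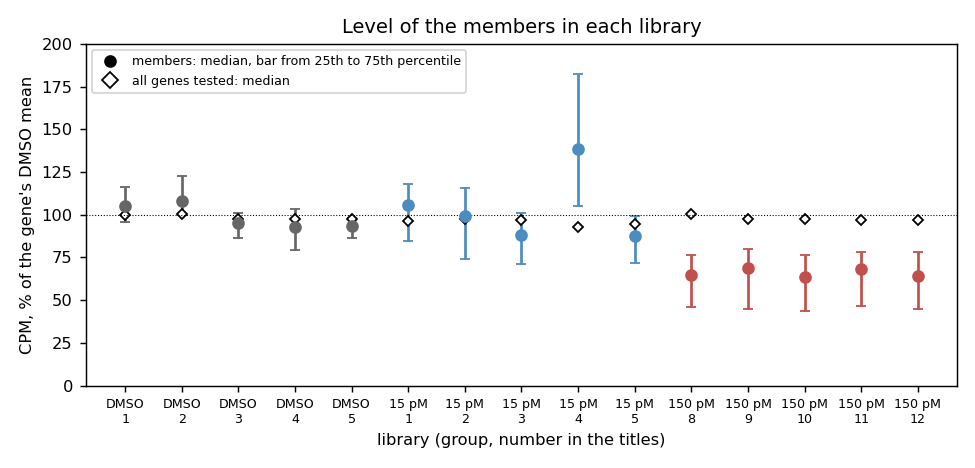
CPM of the 194 members in each of the 15 libraries, as a percent of each gene's DMSO mean (vertical axis), with filled points at the median, bars over the 25th to 75th percentiles and open diamonds at the median of all genes tested. The 150 pM medians lie between 63.7% and 69.1% by the choice of members, and 15 pM library 4 lies at 139%.

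Most members were lower by a modest factor. Against DMSO, the fitted log2 fold change at 150 pM had a median of -0.60 over the members and 0.0083 over all genes tested, with a range over the members from -6.28 to -0.17. At least 2-fold lower were 56 members (28.9%), 15 were at least 4-fold lower and 5 at least 8-fold lower, while 94 were less than 1.5-fold lower. Against 15 pM, the log2 fold change at 150 pM had a median of -0.75 over the members and -0.025 over all genes tested, and ran from -4.70 to -0.30. In that comparison 52 members were at least 2-fold lower and 62 were less than 1.5-fold lower. Without 15 pM library 4 the median against 15 pM was -0.57.

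**Figure D2:**
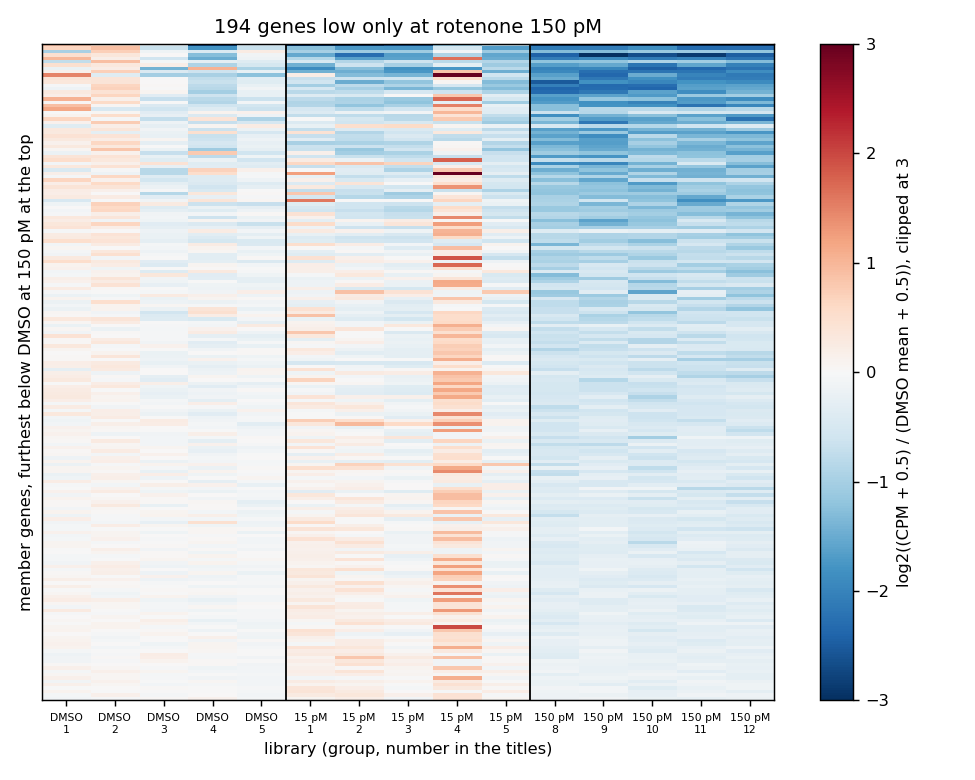
Each row is 1 of the 194 members and each column a library, with color for the log2 ratio of CPM to the gene's DMSO mean (0.5 CPM added to both, clipped at 3), ordered by the fitted log2 fold change at 150 pM against DMSO. The 150 pM columns are blue by the choice of members, and 15 pM library 4 holds the reddest column.

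A gene was called when edgeR's quasi-likelihood test gave an adjusted p under 0.05 over all genes tested. At 150 pM against DMSO, 82 members were called lower and 0 higher, where 3.52% of all genes tested were called lower and 2.13% higher. At 150 pM against 15 pM, 162 members were called lower and 0 higher, where 5.00% of all genes tested were called lower and 9.14% higher. By the rule, all 194 members had no overlap with DMSO or with 15 pM, where 6.20% of all genes tested lay wholly below DMSO and 3.42% wholly below 15 pM. Since the rule used these contrasts, nothing is read from these counts. Both calls were met by 68 members, the call against DMSO alone by 14, that against 15 pM alone by 94 and neither by 18. Of all genes tested, 0.935% were called lower against both. Leaving out single libraries moved the 82 calls against DMSO to 37 and 51 (DMSO libraries 2 and 1), to 48, 49 and 54 (150 pM libraries 8, 10 and 12) and to 147 (15 pM library 4, which enters the shared fit only). Over all genes tested, the 558 lower calls moved as well, to 251 and 341, to 481, 389 and 367, and to 1049 in the same order. Without 15 pM library 4, 147 members were called against DMSO and 149 against 15 pM. Of all genes, 1049 and 873 were then called lower. Without 150 pM libraries 8 and 10, 30 members were called against DMSO and 45 against 15 pM, where 345 and 184 of all genes were called lower.

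The lower dose did not move the members in 1 direction. At 15 pM against DMSO, 6 of the 194 members (3.09%) were called, 4 of them lower and 2 higher. Of all genes tested, 3.69% were called lower and 0.524% higher. The number of calls moved with single libraries. It became 18 when 15 pM library 4 was left out, 1 for 15 pM library 1 or DMSO library 5, and 2 for 15 pM library 3 or 5 or 150 pM library 10, 11 or 12. For 150 pM library 8 or 9 it became 3, for DMSO library 3 it became 4 and for DMSO library 4 it became 7. It was 0 when 15 pM library 2, DMSO library 1 or DMSO library 2 was left out, where 35, 29 and 25 members (18.0, 14.9 and 12.9%) had an unadjusted p under 0.05 in the same edgeR test, against 17.6, 16.1 and 14.7% of all genes tested. The calls over all genes moved too: 584 were lower and 83 higher with all libraries. Leaving out 15 pM library 4 gave 1084 lower and 289 higher, and leaving out 15 pM library 1 gave 213 lower and 48 higher. Over all 15 runs that left out 1 library, lower calls ran from 213 to 1084 and higher calls from 27 to 289. With all libraries DESeq2 called 12 members, where 949 of all genes were called lower and 405 higher. Limma voom called 4 members, where 706 of all genes were called lower and 82 higher. The log2 fold change had a median of 0.11 over the members and 0.027 over all genes tested, and 168 members were less than 1.5-fold apart in either direction. It was positive in 130 members and negative in 64. The rule asked the ranges of DMSO and 15 pM to overlap, which holds large differences between them down.

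Library 4 set much of this balance. The mean CPM at 15 pM was above that of DMSO in 130 members with all 5 libraries and in 87 without library 4. The median level at 15 pM was 108% of the DMSO mean with it and 97.0% without it. Library 4 was the highest of the 5 libraries of its group in 135 members (69.6%), against 35.3% of all genes tested. It was the highest of all 15 libraries in 109 members (56.2%), against 21.5% of all genes. It was the lowest of its group in 15 members (7.73%), against 35.7% of all genes. Its median fold over the mean of the group's other libraries was 1.51 in the members and 0.982 in all genes, and it ran in the members from 0.50 to 40.8. The rule kept the lowest values of DMSO and 15 pM up, so genes with a low library 4 tended to be left out. These contrasts with all genes are thus partly set by the choice of members.

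Library 2 of DMSO was also often the highest of its group. It held that place in 77 members (39.7%), against 17.1% of all genes tested. It was the lowest of its group in 6 members (3.09%), against 11.5% of all genes, and the same limit of the rule applies. At 150 pM no library was the highest of its group in most members. Each of the 5 was so in 32 to 48 members (16.5 to 24.7%), against 17.4 to 23.5% of all genes tested. At the other end, the lowest of the 10 libraries of DMSO and 15 pM belonged to 15 pM in 117 members and to DMSO in 77. It was 15 pM library 3 in 48 members, 15 pM library 5 in 37 and DMSO library 4 in 27, so these libraries most often set where a member's threshold lay. The lowest of the 10 was not counted over all genes tested.

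**Figure D3:**
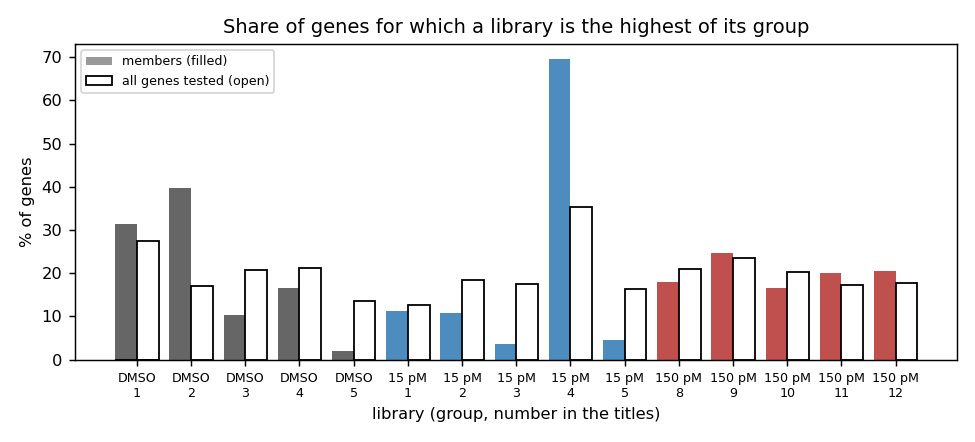
Percent of genes (vertical axis) for which a library was the highest of the 5 in its group, for the 194 members (filled bars) and all genes tested (open bars), in 15 libraries along the horizontal axis. In the members, 15 pM library 4 is at 69.6% and DMSO library 2 at 39.7%, while the 150 pM libraries lie between 16.5% and 24.7%. The choice of members bears on these shares.

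Pairs of members had positive median correlations within DMSO and 15 pM, and one like that of all genes within 150 pM. Over 18721 pairs of members, the median correlation of log2 CPM (0.5 CPM added) across the 5 libraries of a group was 0.27 in DMSO, 0.61 at 15 pM and 0.0066 at 150 pM. For pairs drawn from all genes tested these medians were 0.0042, 0.0002 and 0.0062. Without DMSO library 2 the members' median in DMSO was 0.20, and without library 4 that at 15 pM was 0.31. Each value rests on 5 or 4 libraries, and all pairs share those libraries and their scaling. The rule placed the 5 libraries of 150 pM in no order among themselves, but it kept their highest values down. In DMSO and 15 pM it kept the lowest values up, which may favour genes that share their high libraries. No other set chosen by such a rule was set beside the members, so these correlations are a description.

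The spread of single members is given as a description, since the rule favours genes with a small spread at 150 pM by keeping the highest library there below all others. The median coefficient of variation (SD as a percent of the mean) of the members was 12.8% in DMSO, 28.0% at 15 pM and 11.7% at 150 pM. Over all genes tested it was 18.1%, 31.0% and 21.9%. Without library 4, the value at 15 pM was 13.8% in the members and 21.0% in all genes.

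The most abundant member was Nfu_g_1_021978, which was also first per kilobase of gene length (4296 bases). Its CPM was 792, 1060, 609, 1743 and 1201 in DMSO libraries 1 to 5. It was 1094, 851, 573, 1907 and 776 in 15 pM libraries 1 to 5, and 393, 469, 393, 398 and 534 in 150 pM libraries 8 to 12. Library 4 was the highest in both DMSO and 15 pM, and the highest library of 150 pM lay closely below the lowest of 15 pM. It averaged 1081 ± 436 CPM for DMSO, 1040 ± 519 CPM for 15 pM and 437 ± 63.0 CPM for 150 pM (SD, n = 5 each). The log2 fold change was -1.31 (SE 0.32) at 150 pM against DMSO and -1.25 (SE 0.32) at 150 pM against 15 pM, both called lower. At 15 pM against DMSO it was -0.06 (SE 0.31). The call against DMSO was lost without any single one of DMSO libraries 2, 4 and 5 or of 150 pM libraries 8, 10 and 11. The call against 15 pM was kept without 15 pM library 4 (log2 fold change -0.94). It was lost without 150 pM libraries 8 and 10 (-1.18), and without these and 15 pM library 4 (-0.82).

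The member furthest below DMSO was Nfu_g_1_016280, with a gene length of 360 bases and rank 160. Its CPM was 18.6, 14.6, 7.95, 0.961 and 6.998 in DMSO libraries 1 to 5. It was 0.574, 0.294, 1.06, 4.04 and 5.74 in 15 pM libraries 1 to 5, and 0.0800, 0.0416, 0.134, 0.145 and 0.203 in 150 pM libraries 8 to 12. The 150 pM values came from 16 counts in all 5 libraries together. Both other groups were spread over more than 10-fold, and DMSO library 4 lay inside the range of 15 pM. The log2 fold change was -6.28 (SE 0.99) at 150 pM against DMSO and -4.22 (SE 0.96) against 15 pM, both called lower, and -2.07 (SE 0.75) at 15 pM against DMSO. With limma voom neither of its 2 calls was made. The call against 15 pM was also lost without 150 pM libraries 8 and 10, and without these and 15 pM library 4. The gene did not pass a filter of at least 1 CPM in 10 libraries. Nor was it tested in a fit of the 150 pM and 15 pM libraries alone.

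**Figure D4:**
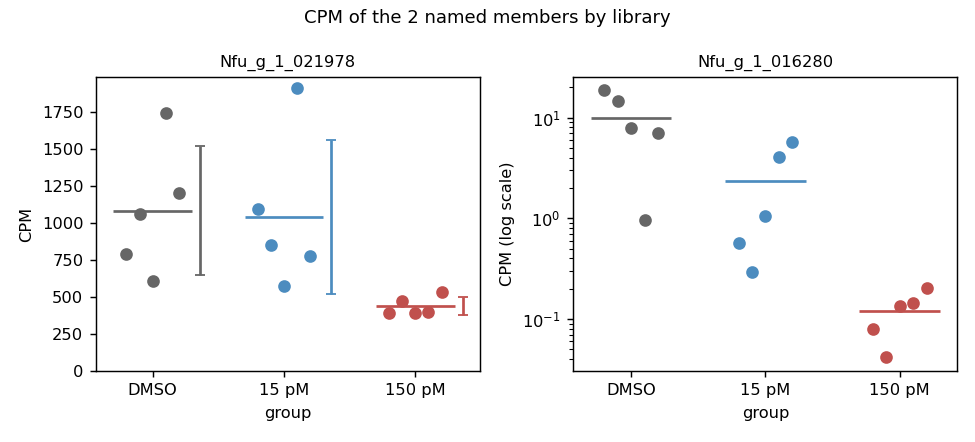
CPM of Nfu_g_1_021978 (left, linear axis) and Nfu_g_1_016280 (right, log axis) in DMSO, 15 pM and 150 pM, with 1 point per library, a horizontal line at the group mean and, at left, a bar of 1 SD either side (n = 5 each). The 150 pM libraries lie at 393 to 534 CPM at left and at 0.0416 to 0.203 CPM at right.

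The member of rank 2 stood at 603, 984, 531, 494 and 571 CPM in DMSO libraries 1 to 5, and at 423, 397, 353, 832 and 415 CPM in 15 pM libraries 1 to 5. In 150 pM libraries 8 to 12 it stood at 293, 304, 299, 298 and 307 CPM. Its SD at 150 pM was 5.43 CPM, and DMSO library 2 and 15 pM library 4 were each far above their groups. The log2 fold change at 150 pM was -1.08 (SE 0.24) against DMSO, called lower, and -0.69 (SE 0.24) against 15 pM, not called.

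Rank 3 showed a wide 15 pM group. Its CPM was 349, 269, 283, 226 and 293 in DMSO libraries 1 to 5, then 390, 315, 282, 1049 and 172 in 15 pM libraries 1 to 5, and 152, 169, 131, 171 and 158 in 150 pM libraries 8 to 12. Library 4 and library 5 of 15 pM were its highest and lowest values outside 150 pM. It was called lower at 150 pM against 15 pM (log2 fold change -1.50, SE 0.36) and not against DMSO (-0.86, SE 0.36).

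Rank 4 differed by little outside library 4. It stood at 270, 277, 245, 253 and 235 CPM in DMSO, at 261, 268, 252, 1008 and 259 CPM at 15 pM, and at 208, 218, 205, 206 and 203 CPM at 150 pM, in the order of library numbers. The first 2 groups lay in the same range apart from library 4, and 150 pM lay below both. Neither log2 fold change at 150 pM was called, at -0.30 (SE 0.34) against DMSO and -0.98 (SE 0.34) against 15 pM. In all, 12 members had a mean of at least 100 CPM over the 10 libraries of DMSO and 15 pM. Those of ranks 1, 2, 8 and 12 were called lower at 150 pM against DMSO, and those of ranks 1, 3, 5 to 7 and 9 to 12 against 15 pM.

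The members furthest below DMSO and those closer to it differed at the lower dose. Of the 56 members at least 2-fold lower at 150 pM than in DMSO, the 15 pM mean was below DMSO in 40 and above it in 16. In these the median level was 75.8% of the DMSO mean at 15 pM (63.5% without library 4) and 35.97% at 150 pM. DMSO library 2 was the highest of all 15 libraries in 21 of them, and 15 pM library 4 in 18. Of the other 138 members, the 15 pM mean was below DMSO in 24 and above it in 114. In these the median level was 112% of the DMSO mean at 15 pM (103% without library 4) and 73.1% at 150 pM, and 15 pM library 4 was the highest of all 15 in 91. Without library 4, the 15 pM mean was below DMSO in 49 of the 56 and 58 of the 138. DMSO library 2 was the highest of all 15 libraries in 8 of the 138. The 2 sets were split by the level at 150 pM against DMSO, which shares its DMSO libraries with the level at 15 pM. A high DMSO mean favours a place among the 56 and also lowers the percent at 15 pM. The difference between the sets is thus partly set by the split, which was not made over all genes tested.

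The 15 members at least 4-fold lower than DMSO had a median log2 fold change of -2.25 at 150 pM against DMSO, -1.56 at 150 pM against 15 pM and -1.01 at 15 pM against DMSO. Their median level was 8.12 CPM over the 10 libraries of DMSO and 15 pM, and their coefficients of variation had medians of 42.9% in DMSO, 48.3% at 15 pM and 32.8% at 150 pM. The 94 members less than 1.5-fold lower than DMSO had medians of -0.38, -0.52 and 0.18 in the same comparisons. They were more abundant, with a median of 19.5 CPM, and their coefficients of variation were smaller, with medians of 8.27% in DMSO, 18.4% at 15 pM and 6.85% at 150 pM. The smallest difference was in rank 102, with 13.9 ± 0.836 CPM in DMSO, 15.5 ± 2.13 CPM at 15 pM and 12.4 ± 0.457 CPM at 150 pM as the mean and SD of 5 libraries. Its log2 fold change at 150 pM was -0.17 (SE 0.10) against DMSO, not called, and -0.32 (SE 0.10) against 15 pM, called lower. In rank 94, which varied least in DMSO, the 150 pM libraries lay between 12.2 and 15.1 CPM, against 15.7 to 16.3 CPM in the DMSO libraries. Small differences thus met the rule where libraries of a group lay close together.

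Of the 4 members called lower at 15 pM against DMSO, those of ranks 55, 70 and 173 were called lower in all 3 comparisons. Rank 173 stood at 8.32, 7.52, 5.95, 2.11 and 5.37 CPM in DMSO libraries 1 to 5, and at 1.69, 0.810, 1.51, 2.93 and 1.65 CPM in 15 pM libraries 1 to 5. In 150 pM libraries 8 to 12 it stood at 0.680, 0.0832, 0.504, 0.363 and 0.651 CPM. Its groups were ordered by dose except that DMSO library 4 lay below 15 pM library 4. Its log2 fold change was -3.67 (SE 0.49) at 150 pM against DMSO, -1.90 (SE 0.47) at 150 pM against 15 pM and -1.77 (SE 0.44) at 15 pM against DMSO. The mean of rank 55 was 43.1 ± 17.0 CPM for DMSO, 20.9 ± 5.48 CPM for 15 pM and 10.5 ± 3.44 CPM for 150 pM (SD, n = 5 each). For rank 70 these means were 27.1 ± 4.73, 17.1 ± 3.07 and 11.6 ± 1.44 CPM. The remaining one, rank 66, was called lower at both doses against DMSO and not between the doses, with 36.2 ± 24.5 CPM for DMSO, 12.9 ± 4.69 CPM for 15 pM and 7.59 ± 1.22 CPM for 150 pM (SD, n = 5 each).

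The 2 members called higher at 15 pM against DMSO were those of ranks 86 and 121. Rank 86, with a gene length of 318 bases, had a mean of 15.8 ± 1.36 CPM for DMSO, 23.4 ± 4.38 CPM for 15 pM and 11.5 ± 1.41 CPM for 150 pM (SD, n = 5 each). Its log2 fold change at 15 pM against DMSO was 0.57 (SE 0.14), and its lowest 15 pM library, at 16.9 CPM, overlapped the highest of DMSO, at 17.2 CPM. The mean of rank 121 was 8.97 ± 1.42 CPM for DMSO, 15.4 ± 5.62 CPM for 15 pM and 6.35 ± 0.430 CPM for 150 pM (SD, n = 5 each). Both were called lower at 150 pM against 15 pM and not against DMSO.

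The fitted mean of a group could rest on 1 library. The member of rank 80 had the highest log2 fold change at 15 pM against DMSO, 2.47 (SE 1.10), which was not called. Its CPM was 18.6, 4.76, 2.86, 2.99 and 2.39 in DMSO libraries 1 to 5, and 7.51, 2.24, 2.08, 161 and 3.99 in 15 pM libraries 1 to 5. In 150 pM libraries 8 to 12 it was 1.72, 0.832, 1.91, 1.23 and 1.06. Library 4 of 15 pM and library 1 of DMSO each stood far above the rest of their groups. A similar case was the member of rank 178, named after its values were seen. It stood at 5.90, 3.20, 1.65, 0.666 and 2.43 CPM in DMSO, at 1.302, 0.552, 0.571, 9.70 and 0.658 CPM at 15 pM, and at 0.280, 0.374, 0.269, 0.326 and 0.203 CPM at 150 pM, in the order of library numbers. The 2 means outside 150 pM were close, at 2.56 CPM for 15 pM and 2.77 CPM for DMSO, and within 15 pM the 4 libraries other than library 4 lay at 1.302 CPM or below.

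The distance between the groups was narrow in most members. The lowest of the 10 libraries of DMSO and 15 pM was above the highest of 150 pM by a median of 5.57% (25th to 75th percentile 2.22 to 10.8%). In 91 members it was above by less than 5%, in 25 by less than 1%, and in 19 by at least 20%. At the threshold, the closest member had 8.778 CPM in its highest 150 pM library and 8.779 CPM in the lowest of the other 10. The closest gene left out had 8.138 CPM against 8.111 CPM. Another 125 genes missed the rule by less than 5%, which includes 11 that missed it by less than 1%.

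The widest distance was that of the member of rank 145, whose lowest other library was 1.67 times its highest of 150 pM. It stood at 12.4, 12.6, 9.32, 5.47 and 7.51 CPM in DMSO libraries 1 to 5, and at 5.63, 5.96, 6.16, 13.6 and 5.16 CPM in 15 pM libraries 1 to 5. In 150 pM libraries 8 to 12 it stood at 3.08, 1.75, 2.35, 1.89 and 1.87 CPM. Library 4 was the highest of 15 pM and the lowest of DMSO, and the other 15 pM libraries lay below the other DMSO libraries. Its log2 fold change at 150 pM was -2.11 (SE 0.31) against DMSO and -1.74 (SE 0.31) against 15 pM, both called lower.

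**Figure D5:**
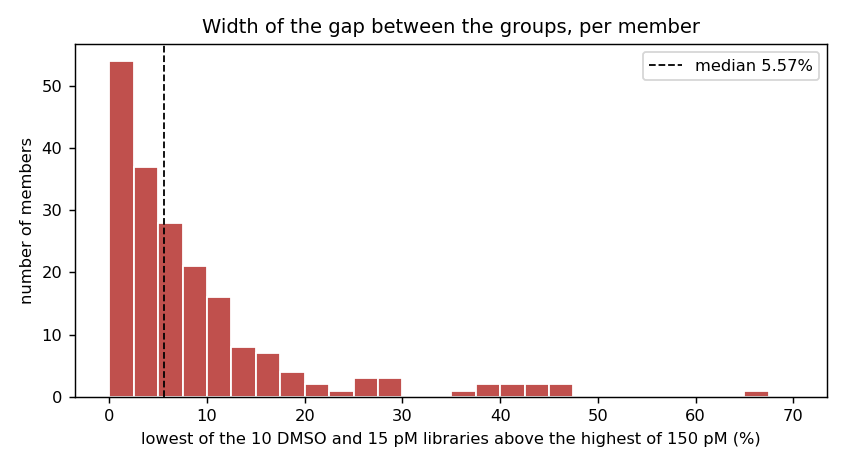
Histogram of the 194 members by how far, in percent, the lowest of the 10 libraries of DMSO and 15 pM lay above the highest of 150 pM. The dashed line is the median, 5.57%, and 1 member lies above 50%.

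Membership moved with the libraries and their scaling. Without 150 pM library 9, 10 or 12 the rule found 337, 297 and 296 genes in place of 194, where fewer libraries had to lie below the others. RLE factors in place of TMM found 193 genes, of which 179 were among the 194. Upper-quartile factors found 159, with 144 shared, and library totals with no factor found 96, with 71 shared. All 4 scalings placed 54 members (27.8%) in the set, and both genes printed by identifier were among them. These 54 had a median log2 fold change at 150 pM of -0.88 against DMSO and -1.004 against 15 pM, and a median distance of 13.1% between the groups. The other 140 had medians of -0.48, -0.66 and 3.34%. At 150 pM against DMSO, 36 of the 54 and 46 of the 140 were called lower (3.52% of all genes tested), and against 15 pM 54 and 108 (5.00% of all genes tested). The distance between the groups itself decides whether a member is kept under another scaling, so nothing is read from this split.

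The rule did not use gene length. The members' genes had a median length of 2196 bases (25th to 75th percentile 1434 to 3217), against 2811 bases (1401 to 4886) over all genes tested. Genes over 5000 bases made up 9.79% of the members (19 genes) and 24.0% of all genes tested, while genes under 1000 bases made up 17.0% and 16.2%. Genes high only at 150 pM had a median of 3879 bases, and those low only at 15 pM 4661 bases. In each library, the deviation of log2 CPM from the gene's mean was also correlated with gene length across all genes tested. The mean Spearman's rho was 0.0078 ± 0.0643 for DMSO, -0.102 ± 0.0652 for 15 pM and 0.106 ± 0.0511 for 150 pM (SD, n = 5 each). It ran from 0.036 to 0.150 at 150 pM and from -0.095 to 0.083 in DMSO, which overlap, and from -0.181 to -0.012 at 15 pM. The mean over all 15 libraries was the reference, so the groups' values depend on each other. The mean rho was thus highest at 150 pM, and the ranges of 150 pM and 15 pM did not overlap. The correlations were weak in every library, and their part in the members' lengths was not tested.

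The median abundance of the members was above that of all genes tested. Over the 10 libraries of DMSO and 15 pM they had a median of 15.9 CPM and a range from 0.464 to 1061 CPM, against a median of 7.47 CPM over all genes tested. Most, 118 (60.8%, against 37.3% of all genes tested), lay between 10 and 100 CPM. Another 57 (29.4%, against 43.4%) lay between 1 and 10 CPM, while 7 (3.61%, against 13.7%) lay below 1 CPM. Per kilobase of gene length, the median was 7.71 CPM for members and 2.86 CPM for all genes tested. The rule itself may bear on abundance, since counting error widens the ranges of genes with few counts, but this was not tested. The least abundant member, rank 194, was the only one with any library of 150 pM at 0: it had 5 counts over the 5 libraries of 150 pM, at 0 in libraries 8 and 9. No member was at 0 in all 5.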

How the data were processed

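Per the labels' protocols, libraries of total RNA were made with TruSeq v2 chemistry, without strand information. Tools named in the submitters' processing notes are featureCounts 1.4.6-p4, STAR 2.4.1d and CASAVA 1.8.2. Genome build and annotation were not given in the sources used here. Overlapping, antisense and near-identical genes could share reads, and their values are uncertain.

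The authors deposited whole-number read counts for 26739 identifiers, which were tested as deposited. The authors also deposited RPKM values. In these RPKM only 6.67% used the total of their own library as divisor, so they served only to recover gene lengths, which came out as 1 length within 0.2% for 100% of 105783 checked values. No identifier was found among the 38438 genes of the reference table (assembly NfurGRZ-RIMD1).

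With edgeR 4.0.16 in R 4.3.3, filterByExpr by group (minimum count 10) kept 15834 genes, which held 99.9% of the counts. One quasi-likelihood fit took all 15 libraries, with TMM factors, 1 mean per group and no block. P-values were two-sided, adjusted (Benjamini-Hochberg) over all genes tested, with a threshold of 0.05. The test was tried on simulated counts first. Alternatives were limma 3.58.1 (voom), DESeq2 1.42.0, other scalings and filters, and leaving out libraries. Libraries 8 and 10 of 150 pM were left out together because earlier results of these data had them apart from their group. The 30 pairs of libraries within a group differed by 43.4 to 791 times the sampling noise, so none was counted as a copy.

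The identifiers printed are the member highest in mean CPM over DMSO and 15 pM, and the one furthest below DMSO at 150 pM among members with a mean of at least 5 CPM there. The members, the lists and the tests were chosen with earlier results of these data known.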

Additional observations from a re-analysis of the deposited data

Results flagged for a closer look

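In groups of 5 libraries, a highest or lowest library was taken as far from the others when its gap to the nearest one exceeded Dixon's 95% critical value. Of 57 groups examined (the members' median level, their share of counts, and single members of which the report gives values, in each of the 3 groups), 10 met this. Chance gives about 1 in 20 for a single group. These groups share the same 15 libraries and some members were picked for extreme values, so the 10 are no test against that rate. Library 4 of 15 pM was the high one in 8 of the 10. The members took 1.38% of its counts. Its CPM was 832, 1049, 1008, 161, 13.6, 9.70 and 0.667 for the members of ranks 2, 3, 4, 80, 145, 178 and 194. Over all 194 members, library 4 stood apart in this way, on the high side, in 60. This count was not made over all genes tested, where library 4 was the highest of its group in 35.3% and the lowest in 35.7%. The rule tended to leave out genes with a low library 4, which bears on the count.

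In DMSO, library 2 stood apart at 984 CPM for the member of rank 2, and library 1 at 18.6 CPM for the member of rank 80. Over all members, DMSO library 1 stood apart on the high side in 5 and DMSO library 2 in 4. These counts too were made over the members only.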

How the results depend on the processing

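The calls of single members were followed for the 2 printed by identifier, and neither changed direction where called. The median at 15 pM against DMSO, near 0, changed sign without 15 pM library 4 (-0.02). Leaving out 1 library gave 178 (without DMSO library 4) to 337 genes by the rule (without 150 pM library 9), against 194. Of the 194, 37 (without DMSO library 2) to 147 (without 15 pM library 4) were called at 150 pM against DMSO, 120 to 164 at 150 pM against 15 pM, and 0 to 18 at 15 pM against DMSO. Lower calls over all genes ran from 251 to 1049, from 450 to 995 and from 213 to 1084 in the same comparisons. The members' median log2 fold changes ran from -0.62 to -0.55, from -0.82 to -0.57 and from -0.02 to 0.17. With library totals the rule found 96 genes, and 52, 89 and 3 of the 194 members were called in these comparisons. Without 150 pM libraries 8 and 10 it found 409, with 30, 45 and 2 of the 194 called (345, 184 and 429 lower calls over all genes). Without these and 15 pM library 4, a setting chosen after seeing the data, it found 359. Of the 194, 76 were then called at 150 pM against DMSO, 60 at 150 pM against 15 pM (median -0.57) and 15 at 15 pM against DMSO. Over all genes in this setting, lower calls numbered 826, 306 and 1117, and higher calls 536, 1034 and 379. The libraries of each comparison alone gave 147, 67 and 0 calls, the last with 31 members (16.0%) at an unadjusted p under 0.05, against 17.5% of all genes. Lower calls over all genes in these fits were 1052, 204 and 236. At 15 pM against DMSO, 12 were called with DESeq2 and 2 with no filter. With no filter, 399 of all genes were called lower and 56 higher in that comparison. Over all genes tested, lower calls numbered 931, 1522 and 949 with DESeq2, and 374, 350 and 481 with library totals. Higher calls at 15 pM against DMSO numbered 405 with DESeq2, 24 with library totals and 67 without 150 pM libraries 8 and 10. The median length was 2221 bases over members of at least 5 CPM. Replicate numbers are shared by DMSO and 15 pM only. Deviations of same-numbered libraries correlated at -0.06 to 0.16, 1 of 5 over 0.1, and 0 of 5 libraries matched their own number best, so the numbers were not taken as pairs. With the replicate block, edgeR called 0 members (15, or 7.73%, at an unadjusted p under 0.05, against 14.4% of all genes) and 1 gene in all, with a median of 0.11 over the members.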
